A study of Mus musculus with 2 samples.

Results

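The genes examined here encode the enzymes that make and break down ceramide, galactosylceramide and sulfatide, the lipids that set myelin apart from most other membranes. Members were the rows of the deposited gene table named Ugt8a, Fa2h, Gal3st1, Cers2, Cers4, Cers5, Cers6, Ugcg, Galc and Arsa, which are 10 of 51826 genes, and their transcripts, 56 of 128622. RNA came from the spinal cord of 7-day-old C57BL/6 mice (postnatal day 7). The cKO library carried the genotype Olig1-Cre;Secisbp2l-floxed(Ex3), in which Cre driven by Olig1, a gene of the oligodendrocyte lineage, acts on a Secisbp2l allele floxed at exon 3, and the WT library was labelled wild type. Each group had 1 library, and the number of animals behind each is not given. The tissue was whole cord, so cells in which Olig1-Cre acts were pooled with all others.

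Ceramide synthases join a fatty acid to a sphingoid base, and each prefers its own chain lengths. In oligodendrocytes, FA2H hydroxylates the fatty acid, UGT8 adds galactose to ceramide to give galactosylceramide, and GAL3ST1 adds sulfate to give sulfatide. UGCG draws on the same ceramide pool to make glucosylceramide, the base of gangliosides, while ARSA and GALC remove the sulfate and the galactose in lysosomes.

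The cKO library held 55179026 estimated counts and the WT library 42875143, and 1 sequenced fragment was assumed to stand for 2 counts. Levels between genes are given below in the authors' TPM, which is scaled per length. Differences between libraries are log2 ratios, cKO over WT, of counts per 1000000 on library sizes scaled by TMM (CPM). Their 95% intervals are exact (Clopper-Pearson) and cover counting error only. Without replicates, differences could not be set against the spread between animals and no p-value is given. A gene counted as lower or higher where it differed by at least 1.5-fold and its interval left out a ratio of 1. Secisbp2l itself stood at 466 CPM in cKO and 588 CPM in WT (log2 ratio -0.34). Olig1 stood at 176 CPM in cKO and 388 CPM in WT (-1.14, interval -1.20 to -1.09). The labels give Olig1-Cre to the cKO library only, so its part cannot be told apart from that of the floxed allele. Xist had 13 counts in cKO and 35182 in WT, and 4 genes of the Y chromosome (Uty, Kdm5d, Eif2s3y, Ddx3y) had 1081 to 4280 counts in cKO and 0 in WT. Genotype and sex therefore cannot be told apart in these libraries.

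The mRNAs of the enzymes that add the hydroxyl, galactose and sulfate groups of myelin lipids (Fa2h, Ugt8a and Gal3st1) were lower in the cKO library. Those of enzymes that break these lipids down (Galc and Arsa) or use ceramide for another product (Ugcg) were not. The ceramide synthase members were divided, with Cers2 lower and Cers4, Cers5 and Cers6 not. All 10 members were above the minimum of 1 CPM. By the size rule 4 were lower, 0 were higher and 6 were neither. The 4 were Fa2h, Ugt8a, Cers2 and Gal3st1. Among all 15917 genes measured, 3.39% were lower and 2.46% higher by the same rule, and the median log2 ratio was 0.013, with quartiles of -0.14 and 0.15. The remaining 6 members lay between -0.097 and 0.24. The median of all 10 members was -0.036, near that of all genes, and does not show this split. In RNA of a whole tissue, fewer cells of a type and less RNA per cell cannot be told apart.

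**Figure D1:**
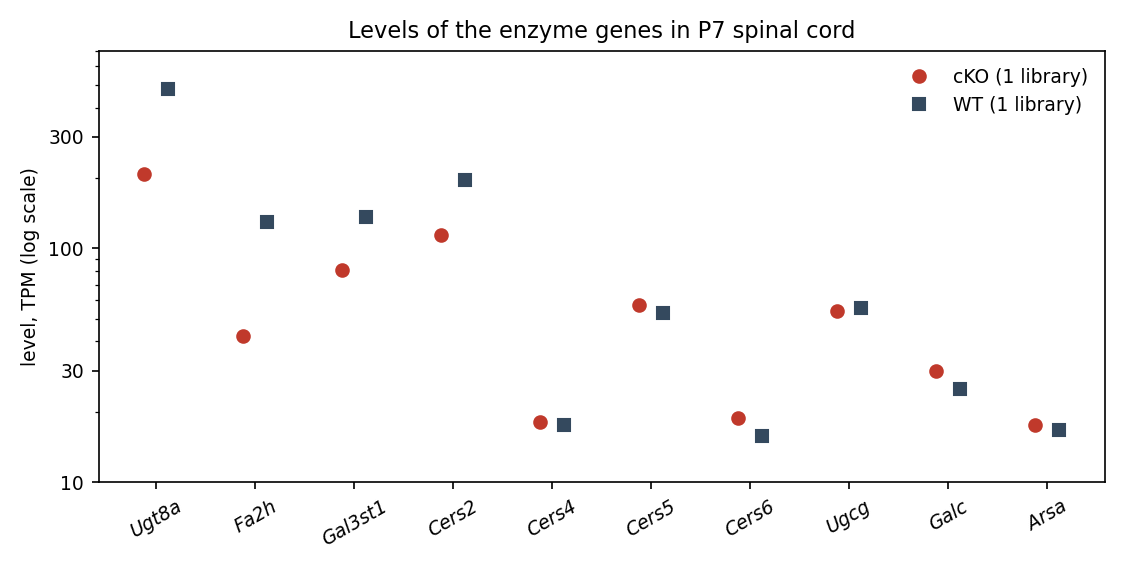
Levels of the 10 enzyme genes in the authors' TPM (log axis), with circles for the cKO library and squares for the WT library. Ugt8a was the highest in both libraries, at 208 TPM in cKO and 479 TPM in WT, and Fa2h lay below Cers5 and Ugcg in cKO and above both in WT.

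Ugt8a (ENSMUSG00000032854), the galactosyltransferase that commits ceramide to galactosylceramide, is a minus-strand gene of chromosome 3 that spans 125865271 to 125938619 (GRCm38). It stood at 208 TPM in cKO and 479 TPM in WT, on 18703 and 34391 counts. It was the most abundant member in both libraries and 2.36-fold lower in cKO (log2 ratio -1.24, interval -1.28 to -1.20). Only 0.74% of measured genes had a ratio as low or lower.

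Fa2h (ENSMUSG00000033579), the fatty acid hydroxylase, is a minus-strand gene of chromosome 8, at 111345135 to 111393824. It had the lowest ratio of the 10 members. Its level was 42.2 TPM in cKO and 129 TPM in WT, on 2492 and 5752 counts, a 2.97-fold lower value in cKO (log2 ratio -1.57, interval -1.67 to -1.47). At or below that ratio lay 0.44% of measured genes. By level Fa2h was below Cers5 and Ugcg in cKO and close to Gal3st1 in WT.

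Gal3st1 (ENSMUSG00000049721), the cerebroside sulfotransferase, is a plus-strand gene of chromosome 11, at 3983636 to 3999326. It had 80.7 TPM in cKO and 136 TPM in WT, on 3510 and 4706 counts. The gene was 1.72-fold lower in cKO (log2 ratio -0.79, interval -0.88 to -0.70). The enzyme acts after UGT8, yet its mRNA differed by less than that of Ugt8a.

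Cers2 (ENSMUSG00000015714), the ceramide synthase of very long acyl chains, is a plus-strand gene of chromosome 3, at 95314791 to 95323599. It was the second most abundant member, at 114 TPM in cKO and 197 TPM in WT, on 5545 and 7500 counts. It was 1.74-fold lower in cKO (log2 ratio -0.80, interval -0.87 to -0.73). The strand setting of the counting is not given, and exons of Setdb1 and 6330562C20Rik lie opposite Cers2. The overlap with Setdb1 covers 75 of the 2216 bases of Cers2-201. When all counts of both neighbours were added, of which Setdb1 held 3551 in cKO and 2538 in WT, the log2 ratio was -0.50, short of the 1.5-fold limit.

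**Figure D2:**
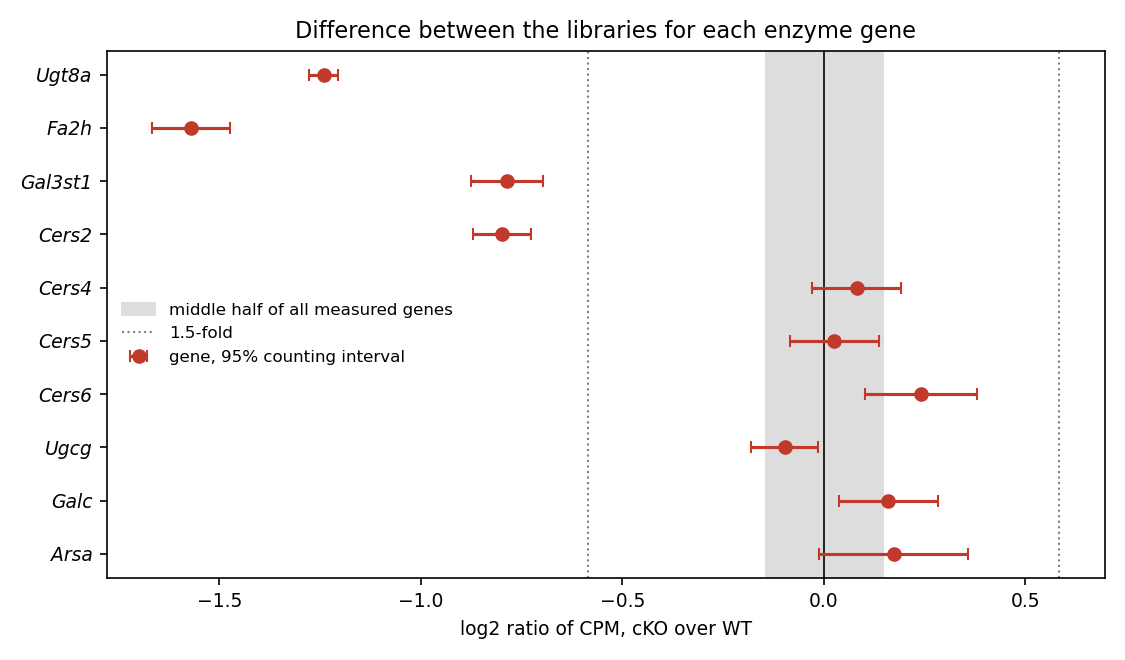
Log2 ratio of CPM, cKO over WT, for each enzyme gene, with 95% counting intervals. The grey band spans the quartiles of all measured genes, -0.14 to 0.15, and dotted lines mark 1.5-fold. Fa2h, Ugt8a, Cers2 and Gal3st1 lie left of the lower dotted line, and the other members lie in or near the band.

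The other ceramide synthase members were close between the libraries. Cers5 (ENSMUSG00000023021; chromosome 15, 99734881 to 99772885), which makes ceramides of shorter, palmitoyl-type chains, had 57.1 TPM in cKO and 53.1 TPM in WT (log2 ratio of CPM 0.026, interval -0.084 to 0.14). Cers4 (ENSMUSG00000008206; chromosome 8, 4493026 to 4531680), a synthase of long-chain ceramides, had 18.1 TPM in cKO and 17.6 TPM in WT (0.083, interval -0.029 to 0.19). Both intervals hold a ratio of 1. Cers6 (ENSMUSG00000027035; chromosome 2, 68861441 to 69114282), like Cers5 a synthase of shorter chains, had 18.9 TPM in cKO and 15.8 TPM in WT. Its log2 ratio was 0.24 (interval 0.10 to 0.38), the highest among the members, at 2123 and 1398 counts. That interval leaves out a ratio of 1, but the difference of 1.18-fold is short of the size rule. Cers4 and Cers6 had similar levels in each library, well below Cers5.

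The make-up of ceramide synthase mRNA differed as a result of these values. Summed over Cers1 to Cers6, the level was 259 TPM in cKO and 331 TPM in WT. Cers2 made up 44.2% of that sum in cKO and 59.5% in WT. Cers5 made up 22.1% in cKO and 16.0% in WT. Cers1, the stearoyl-type synthase of neurons, is no member and shares exons with Gdf1 and Upf1. It made up 19.1% in cKO and 14.2% in WT, at a log2 ratio of CPM of 0.022. Cers3 was below 1 TPM in both libraries. Against single synthases, the count ratio of Cers2 to Cers6 was 2.61 in cKO and 5.36 in WT, a log2 change of -1.04 (interval -1.19 to -0.88, which, like that of every change of a count ratio below, is a normal approximation of counting error). For Cers2 to Cers4 the log2 change was -0.88 and for Cers2 to Cers5 it was -0.82.

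**Figure D3:**
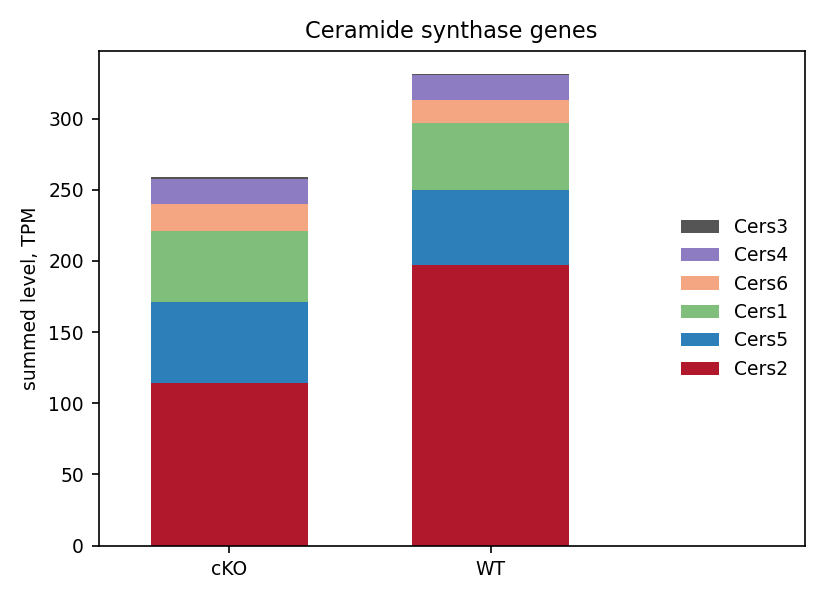
Summed TPM of the ceramide synthase genes in the cKO and WT libraries, stacked by gene from Cers2 at the bottom. The sums were 259 TPM in cKO and 331 TPM in WT, and the Cers2 block accounts for most of the difference, at 114 TPM in cKO and 197 TPM in WT.

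Ugcg (ENSMUSG00000028381), the glucosylceramide synthase, lies on chromosome 4 at 59189257 to 59222833. It had 53.9 TPM in cKO and 55.5 TPM in WT, on 5069 and 4218 counts (log2 ratio of CPM -0.097, interval -0.18 to -0.013). The interval leaves out a ratio of 1 by a small margin and the difference is far inside 1.5-fold. The ratio between the mRNAs of the enzymes that add galactose and glucose to ceramide differed between the libraries. The TPM of Ugt8a was 3.86 times that of Ugcg in cKO and 8.64 times in WT, and the log2 change of their count ratio was -1.14 (interval -1.23 to -1.05).

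The genes of the lysosomal enzymes had log2 ratios slightly above 0, and the interval of Arsa holds a ratio of 1. Galc (ENSMUSG00000021003), the galactosylceramidase whose loss causes Krabbe disease, lies on chromosome 12 at 98202294 to 98259459. It had 29.8 TPM in cKO and 25.1 TPM in WT, on 2619 and 1825 counts (log2 ratio of CPM 0.16, interval 0.037 to 0.28). Arsa (ENSMUSG00000022620), the arylsulfatase whose loss causes metachromatic leukodystrophy, lies on chromosome 15 at 89472476 to 89477425. It had 17.5 TPM in cKO and 16.8 TPM in WT, on 1186 and 818 counts (0.17, interval -0.010 to 0.36). The antisense gene C230037L18Rik, with 111 counts in cKO and 136 in WT, has exons opposite those of Arsa. Neither enzyme gene met the size rule. Synthesis and breakdown genes of the same bond thus stood in a lower ratio in cKO. Ugt8a had 6.99 times the TPM of Galc in cKO and 19.1 times in WT, a log2 change of the count ratio of -1.40 (interval -1.53 to -1.27). Gal3st1 had 4.61 times the TPM of Arsa in cKO and 8.13 times in WT, with a log2 change of -0.96 (interval -1.16 to -0.76).

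Among the genes that were lower, Fa2h and Gal3st1 differed in size from Ugt8a beyond counting error. Fa2h differed by more than Ugt8a, with a log2 change of their count ratio of -0.33 (interval -0.43 to -0.23). Gal3st1 differed by less than Ugt8a, with a change of 0.46 (interval 0.36 to 0.55). Cers2 and Gal3st1 had similar log2 ratios, at -0.80 and -0.79, with overlapping intervals.

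Promoter sequences are shown for the 3 lower genes that have an entry in the RefSeq promoter table of GRCm38.p6, to let their composition be compared. The table matched 9 of the 10 members, without Fa2h. Each line gives the 250 bases before the first listed start, read 5′ to 3′ on the strand of the gene. For Cers2 that start lies inside the gene span given above, so its window lies within the annotated gene and not upstream of it. Capitals mark GC boxes (GGGCGG, on either strand, overlapping matches counted singly) and Sox cores (ACAAAG or ACAATG, on either strand).
Ugt8a, chr3:125938653-125938902, minus strand: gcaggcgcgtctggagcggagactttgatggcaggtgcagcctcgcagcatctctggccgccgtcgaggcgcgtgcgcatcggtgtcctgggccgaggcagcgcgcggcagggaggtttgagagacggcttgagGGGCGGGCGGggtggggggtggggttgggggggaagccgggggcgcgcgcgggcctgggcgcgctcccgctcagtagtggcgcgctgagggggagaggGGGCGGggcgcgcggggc
Gal3st1, chr11:3983386-3983635, plus strand: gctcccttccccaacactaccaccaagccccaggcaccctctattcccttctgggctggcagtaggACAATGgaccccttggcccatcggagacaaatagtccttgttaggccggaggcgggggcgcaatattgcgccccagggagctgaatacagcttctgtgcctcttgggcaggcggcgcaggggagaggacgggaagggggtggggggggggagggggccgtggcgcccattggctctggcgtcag
Cers2, chr3:95314940-95315189, plus strand: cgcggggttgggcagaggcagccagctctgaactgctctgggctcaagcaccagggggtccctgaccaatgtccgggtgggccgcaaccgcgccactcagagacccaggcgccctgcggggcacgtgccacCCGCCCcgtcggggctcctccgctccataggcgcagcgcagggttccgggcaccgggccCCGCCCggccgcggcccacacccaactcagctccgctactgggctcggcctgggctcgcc

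Ugt8a and Cers2 were GC-rich in this window, at 76.8% and 74.8% G or C, against a median of 52.4% over the 32817 promoters in the table. Ugt8a held 3 GC boxes, of which the first and second overlap, and Cers2 held 2. Gal3st1 was at 65.6% and held 0 GC boxes and 1 Sox core. A GC box was found in 32.7% of all promoter windows and a Sox core in 25.2%. The E-box CAGCTG, found in 13.0% of all windows, was in none of the 3. These matches describe the letters of each window only, and the promoters shared none of the searched motifs across all 3 genes.

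The transcripts were examined next, by the authors' division of counts. Of the 56 member transcripts, 26 had a mean of at least 1 CPM, and of these 9 were lower and 2 higher by the size rule. All 9 belong to the 4 lower genes. Over all 32757 transcripts measured, 12.9% were lower and 13.1% higher, far more than among genes, so single transcripts vary widely in these files. Transcripts of a gene share most exons and their division can differ between libraries.

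In each of the 4 lower genes the main coding transcript was itself lower. Ugt8a-201, of 6 exons and 3740 bases, had 202 TPM in cKO and 452 TPM in WT (log2 ratio of CPM -1.20). It held 97.3% of the counts of Ugt8a in cKO (Wilson interval 97.0% to 97.6%) and 94.3% in WT (94.0% to 94.6%). Cers2-201, of 11 exons, held 93.4% in cKO and 92.2% in WT and had a ratio of -0.78. Fa2h-201, of 7 exons and 2492 bases, had 40.5 TPM in cKO and 106 TPM in WT, with a ratio of -1.42.

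The second transcripts of Ugt8a and Fa2h differed by more than the first. Ugt8a-203 has the same coding exons as Ugt8a-201 but starts inside intron 1, with 424 bases of that intron ahead of exon 2. It had 491 counts in cKO and 1950 in WT (log2 ratio -2.35) and held 2.63% of the gene in cKO and 5.67% in WT. Fa2h-204 is annotated as a retained-intron transcript. It ends 461 bases into the intron after exon 6, at 111347470 to 111347930, and lacks the last exon. It has no annotated coding sequence. The 2 Fa2h transcripts part at the end of exon 6, whose last 30 bases are in lower case below, with the next 30 bases of each transcript in capitals (GENCODE M21 transcripts, GRCm38, minus strand). The last bases of exon 6 are chr8:111347931-111347960, the intron bases are chr8:111347901-111347930 and the exon 7 bases are chr8:111346492-111346521.
Fa2h-204: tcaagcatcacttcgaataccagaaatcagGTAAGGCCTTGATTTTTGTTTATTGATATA
Fa2h-201: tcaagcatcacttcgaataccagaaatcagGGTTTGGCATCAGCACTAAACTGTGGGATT

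Fa2h-204 had 64 counts in cKO and 708 in WT (log2 ratio -3.83), and held 2.57% of the counts of Fa2h in cKO (Wilson interval 1.82% to 3.60%) and 12.3% in WT (11.2% to 13.6%). Its share was thus lower in cKO by 9.74 percentage points. Among 2334 retained-intron transcripts that held at least 10% of a measured gene in either library, 13.4% had a share lower in cKO by as much or more, and 15.4% a share higher by as much. A shift of this size was common in these files. With Fa2h-201 alone the gene still differed by more than 1.5-fold.

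Gal3st1 was divided between a pair of transcripts with the same coding exons, set apart mainly by a 218-base exon upstream of the coding sequence. Gal3st1-201, which includes it, had 36.9 TPM in cKO and 54.1 TPM in WT and a log2 ratio of CPM of -0.59. Gal3st1-202, which skips it, had 43.2 TPM in cKO and 80.5 TPM in WT and a ratio of -0.93. Both were lower by the size rule, and Gal3st1-201 held 47.5% of the gene in cKO (45.2% to 49.9%) and 41.4% in WT (39.5% to 43.4%).

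**Figure D4:**
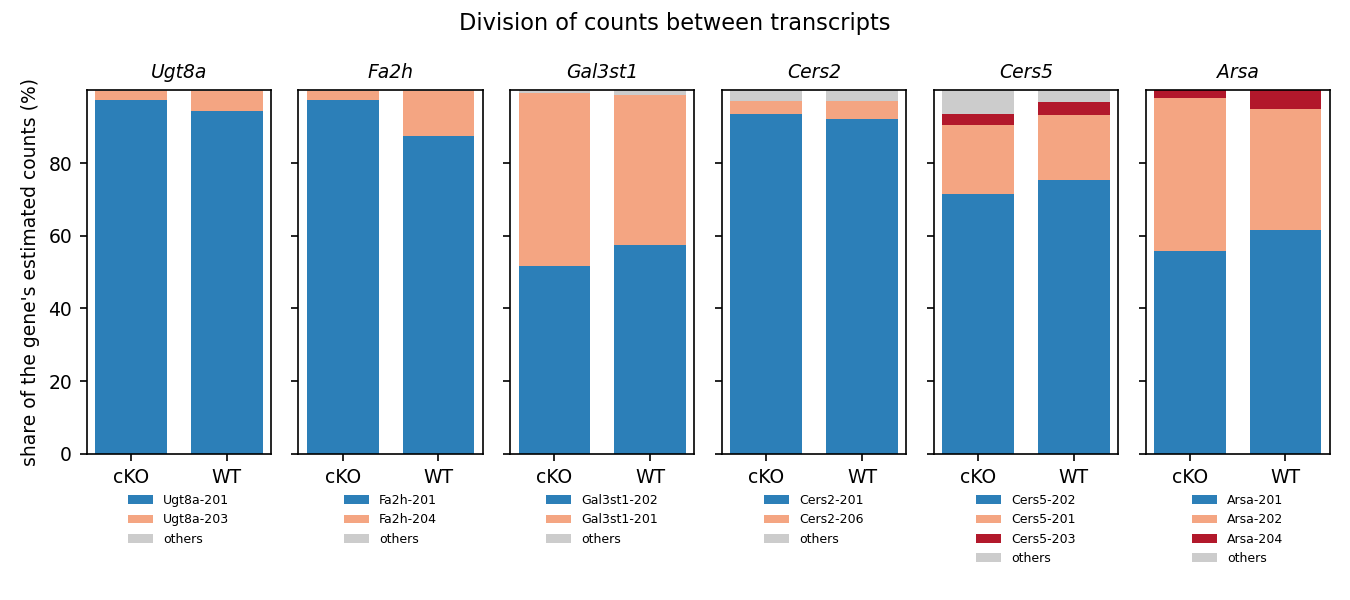
Share of each gene's estimated counts held by its transcripts, in percent, with cKO left of WT in each panel. Fa2h-204 held 2.57% in cKO and 12.3% in WT, and Ugt8a-203 held 2.63% and 5.67%, while Cers2 was divided alike in both libraries.

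The main transcripts of the other members stayed short of the size rule, as did their genes. Cers5-202 and Cers5-201, which differ in an exon of 107 bases and in their coding ends, had log2 ratios of -0.047 and 0.092. Cers5-202 held 71.6% of the gene in cKO and 75.3% in WT. Cers4-201 and Cers6-201 held 88.5% and 90.2% of their genes in cKO and 85.7% and 89.1% in WT. Ugcg-201 held 99.4% in cKO and 99.7% in WT, and Galc-201 89.7% in cKO and 92.2% in WT. For Arsa, more counts were assigned to Arsa-201, annotated as a retained-intron transcript, than to the coding Arsa-202. Arsa-201 held 55.7% in cKO (51.6% to 59.6%) and 61.5% in WT (56.8% to 66.2%), and Arsa-202 held 42.3% and 33.5%, with log2 ratios of 0.032 and 0.51. The interval of Arsa-202, 0.21 to 0.82, leaves out a ratio of 1 but overlaps that of Arsa-201, -0.21 to 0.27. The value of the Arsa gene joins both, and a difference between their ratios was not tested. The 2 member transcripts that were higher by the size rule were minor ones, Cers5-204 (108 counts in cKO and 26 in WT) and Galc-205 (99 and 22).

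The rest of the pathway was described by 10 lists of 75 names, of which 67 genes were measured. Few differed: 2 were lower by the size rule, 1 was higher, and the median log2 ratio was -0.031. These counts are close to the shares of all genes given above. Elovl7, an elongase of long acyl chains, stood at 46.2 CPM in cKO and 105 CPM in WT (log2 ratio -1.19, interval -1.29 to -1.09). Gltp, the glycolipid transfer protein, stood at 117 CPM in cKO and 207 CPM in WT (-0.83, interval -0.89 to -0.76). Acer2, an alkaline ceramidase of the Golgi, was the higher one, on 369 counts in cKO and 181 in WT (0.67, interval 0.30 to 1.05).

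Genes for supply of the ceramide backbone stayed short of the rule, but both lists had medians below the lower quartile of all genes, -0.14. The second list held only 2 measured genes, Degs1 and Kdsr. Among 7 measured genes of serine palmitoyltransferase and its regulators, 0 met the rule, 5 were below 0 and the median log2 ratio was -0.25. They ranged from -0.34 (Sptlc1) to 0.43 (Sptssa). The summed level of all 8 listed genes was 247 CPM in cKO and 247 CPM in WT. Sptlc2, a catalytic subunit, was at -0.13 and Ormdl3, a regulator of the complex, at 0.11. Degs1, the desaturase that forms ceramide from dihydroceramide, was at -0.36, and Kdsr, the reductase before it, at -0.19. Apart from Elovl7, the 10 other measured genes of acyl chain supply stayed short of the rule. The elongase genes Elovl6, at -0.56, and Elovl1, at -0.52, came close to it, and Hsd17b12 was at 0.43. Of all 11 measured genes in this list, 7 were below 0. Tecr and Hacd3, shared steps of the elongation cycle, were at 0.071 and 0.00035.

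The donors and partners of the galactolipid enzymes also lay short of the rule. For the sugar and sulfate donors, 0 of 9 genes met it, with Papss1, which makes the sulfate donor, at -0.20 and Ugp2, which makes UDP-glucose, at -0.13. Ceramide and glycolipid transfer genes numbered 4, and besides Gltp the most abundant was the ceramide carrier Col4a3bp, at -0.57 by CPM. By the authors' TPM Col4a3bp was level, at 39.3 TPM in cKO and 38.8 TPM in WT. Sphingomyelin turnover genes had a median of 0.084 with 0 of 7 past the rule, Samd8 at 0.085 and Smpd1 at 0.084. Glucosylceramide and ganglioside synthesis genes, downstream of Ugcg, had a median of 0.19 with 0 of 7 past the rule. B4galt6 and B4galt5, which make lactosylceramide, were at 0.13 and 0.24. Ceramidase and sphingosine phosphate genes had a median of -0.047, with Asah1 at -0.11 and Sgpp1 at -0.040. Lysosomal breakdown partners had a median of 0.098 and 0 of 11 past the rule, with Psap, the saposin precursor that GALC and ARSA depend on, at 0.098 and Gm2a at -0.066.

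Markers of oligodendrocytes differed together with the 4 lower members. Of 19 mature oligodendrocyte markers, 16 were lower by the size rule, all had a ratio below 0, and the median was -0.89, with a range of -1.66 to -0.48. Their summed level was 9188 CPM in cKO and 18636 CPM in WT. Mbp, which encodes a main structural protein of central myelin, was at -0.89. Within that list's range, 1 marker had a lower ratio than Fa2h, 3 a lower ratio than Ugt8a and 11 a lower ratio than Cers2 and than Gal3st1. The 6 other members all lay above every one of the 19 markers.

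Earlier stages of the lineage differed by less in their medians. Newly formed oligodendrocyte markers had a median of -0.70 with 5 of 8 lower and a summed level of 1032 CPM in cKO and 1634 CPM in WT. Gpr17 was at -0.64 and Sirt2 at -0.58. The range of this list, -1.09 to -0.18, overlaps that of the mature markers and holds the ratios of Cers2 and Gal3st1. Precursor markers had a median of -0.13 with 0 of 8 past the rule, and a summed level of 947 CPM in cKO and 1042 CPM in WT. Pdgfra was at -0.074 and Ptprz1 at -0.0045.

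Schwann cells, the myelinating glia of nerve roots, use the same galactolipid enzymes. Their 8 markers had a median of 0.14, ranged from -0.81 to 0.49 with 1 lower, and summed to 1089 CPM in cKO and 998 CPM in WT, none of them at 0. Pmp22, which encodes a protein of peripheral myelin, was at 0.13. Their transcripts were thus present in both libraries, and their part in the member values was not tested.

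Other cell types were described by the same measures. Neuron markers had a median of 0.20 and summed to 6444 CPM in cKO and 5672 CPM in WT, with Nefm at 0.26 and Nefl at 0.13. Astrocyte markers had a median of -0.050, with Gfap at -0.067 and Slc1a2 at -0.055, and microglia markers one of -0.10, with Csf1r at 0.085 and C1qc at -0.21. None of these 3 lists had a gene past the rule. Endothelial markers had a median of 0.11 with 1 of 8 lower, with Kdr at 0.37 and Cldn5 at 0.13. Meninges and fibroblast markers had a median of -0.33 with 2 of 7 lower and summed to 3115 CPM in cKO and 3796 CPM in WT, with Col1a2 at -0.14 and Col1a1 at -0.11. Red blood cell markers had a median of 0.55 with 1 of 5 higher and summed to 1898 CPM in cKO and 1299 CPM in WT, with Hbb-bs at 0.53 and Hba-a1 at 0.55. The part of these tissues in the member values was not tested.

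**Figure D5:**
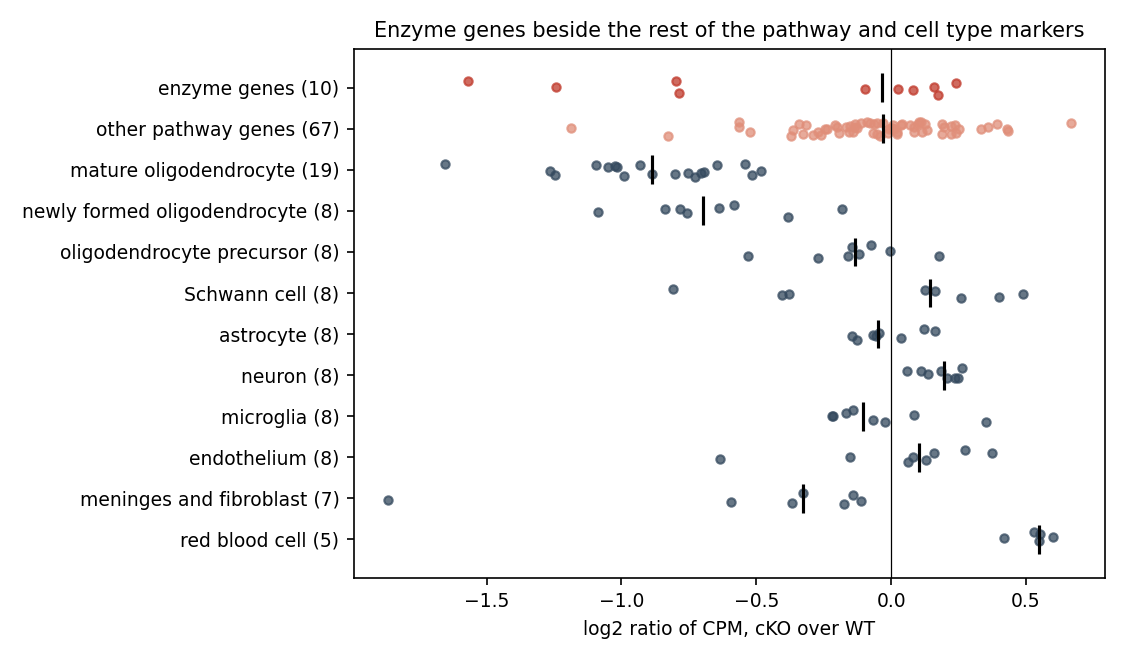
Log2 ratio of CPM, cKO over WT, for the enzyme genes, the other measured genes of the pathway and the cell type markers, with 1 point per gene and a vertical bar at each median. The enzyme genes fall into 4 points among the mature oligodendrocyte markers, whose median was -0.89, and 6 points near 0.

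Genes of at least 10 CPM with the ratio nearest to each lower member were also listed. With 2 libraries, likeness is the distance between single ratios, searched among 10990 genes. Nearest to Ugt8a were Mobp, a basic protein of myelin (-1.24), Mlh3, a DNA mismatch repair gene (-1.23), and Plekhb1 (-1.22). Nearest to Cers2 were Pllp, the plasmolipin gene of myelin (-0.80), Lims2 (-0.80) and Fgd3 (-0.80). Those nearest to Gal3st1 were Bmp4, a growth factor (-0.78), Trim59 (-0.78) and Idi1, an enzyme of sterol synthesis (-0.79). For Fa2h they were 4930453N24Rik (-1.57), Mgat4c (-1.63) and 1600014C10Rik (-1.63), with levels of 22.8, 18.4 and 34.2 CPM in WT.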

How the data were processed

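The authors deposited estimated counts, TPM and FPKM per gene and per transcript, per the file headers, with 1 column for each library. Bowtie2 2.3.2, CASAVA and the build GRCm38.p6 are named without roles, per the submitters' processing notes, while the sources used here do not give the counter, its annotation or its use of strand. Of transcripts with under 50 counts, 98.8% in cKO and 98.8% in WT matched, within 0.1, the product of FPKM, length and a constant after rounding up, so the deposited counts are estimates rounded up. For genes with 1 transcript and few counts these products lay within 0.2 of an even number in 32.8% (cKO) and 34.5% (WT). They lay within 0.2 of an odd number in 18.9% and 18.0%, so 1 fragment was taken as 2 counts. The other products lay near neither, so this unit is an assumption. With intervals on the counts as deposited, 4 members were again lower.

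Library sizes were scaled by TMM in edgeR 4.0.16 (R 4.3.3), with factors of 0.9994 for cKO and 1.0006 for WT. DESeq2 1.42.0 size factors, upper quartile scaling, no factor, the authors' TPM with pseudocounts of 0.1 and 1, other filters and fold limits, the main transcript alone and sums with overlapping genes were alternatives. A count of 0 was set to 3 fragments where a ratio was formed. Intervals came from scipy 1.17.1 (Python 3.11.15). The size rule was also run on simulated counts that varied by counting error alone. That run cannot show how the rule does where animals differ. PCR copies are not independent molecules, so intervals cover only the error of counting.

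With 1 library per group no test was possible. Named genes were all members, transcripts with at least 10% of a gene (Ugt8a-203 and the minor transcripts were added after their values were seen), pathway genes past the rule, the 2 most abundant of each list and the 3 nearest in ratio to each lower member; some results for genes that this rule takes are left out. Members and lists were chosen with earlier results of these data known. Positions match GENCODE M21 for all 10 members, and promoter sequences are from RefSeq.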

Additional observations from a re-analysis of the deposited data

How the results depend on the processing

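No paired analysis was possible because each group had 1 library. Of 70 recomputed member ratios, 65 stayed inside the main counting interval and 0 of the called ones changed sign. The other 5 were Ugt8a at -1.20 with TPM and a pseudocount of 1, Ugt8a at -1.20, Fa2h at -1.42 and Gal3st1 at -0.93 on the most abundant transcript alone, and Cers2 at -0.50 when summed with overlapping genes, where it lost the size rule. Only Cers2, Cers4, Galc and Arsa have overlapping genes, so that sum could not move the other members. The library scalings shift all genes by the same amount, so they are not separate checks of each member. The 4 lower members met the rule under every scaling, pseudocount and filter listed in the methods. At a limit of 2-fold, 2 members were lower (Ugt8a and Fa2h), and 1 pathway gene was lower (Elovl7) and 0 higher. On the authors' TPM 2 pathway genes were higher with a pseudocount of 0.1 and 2 with a pseudocount of 1, Sgms1 joining Acer2. All 50 recomputed marker medians moved by less than the spread within their list. Depth limits Arsa and Cers6 most, with 818 and 1398 counts in WT, and no setting replaces a second library per group.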
